A study of Mus musculus with 2084 samples.

Results

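Hapln1, Cdh19, Gpm6a, Apln, Mgat4c, Aifm3 and Stk17b are 7 of the 35606 genes counted in single cells of the adult mouse brain. They were chosen because their summed reads were lower in GLAST-sorted cells after ischemia than in naive cells. GLAST is the glutamate transporter Slc1a3 on the surface of astrocytes and of neural stem cells (NSCs), so a GLAST sort collects both. The levels of the 7 genes before and after ischemia are therefore given as a description, without a test. They were read in 1362 cells of GLAST sorts and in 77 labelled astrocytes of 2 other replicates.

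Each deposited sample is 1 cell, profiled by Smart-seq3 as the RNA side of scNMT-seq, an assay that also reads DNA methylation and chromatin accessibility of the same cell. Letters pA to pM name biological replicates, each of 1 or more mice. TiCY mice received tamoxifen at 2 months of age, which switches on eYFP in vSVZ stem cells that express Tlx and in their progeny. The eYFP thus marks stem cells, not astrocytes, and the GLAST sorts described here were taken by surface antigen from the ventricular-subventricular zone (vSVZ), the stem cell niche along the lateral ventricle, and from the neighbouring striatum. Ischemia was set by closing both carotid arteries 2 weeks after tamoxifen, and mice were killed 2 d or 21 d later. The TiCY arms were naive (pM, 131 striatal and 188 vSVZ cells), 2 d (pI, 122 and 176 cells) and 21 d (pH, 79 and 155 cells). The knockout (KO) arms lacked receptors for interferon: naive IFN(A/G)R KO mice (35 and 134 cells) and TiCY-IFN(A/G)R KO mice 2 d after ischemia (114 and 228 cells). Both KO arms carry the letter pJ, and the labels give the TiCY background only for the 2 d arm. Naive wild-type (WT) mice (pA to pF) had neither tamoxifen nor ischemia; 12 striatal astrocytes came from pE. Letter pL gave 33 striatal and 32 cortical astrocytes of naive WT mice with a TCF-Lef reporter, all but 1 from a GFP+ gate by their titles.

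Astrocytes shape the space around neurons through secreted matrix, adhesion molecules and transporters, and after injury they become reactive, with more intermediate filament and less of some homeostatic genes. Hapln1 encodes a link protein that fixes hyaluronan to lectican proteoglycans in the extracellular matrix. Cdh19 encodes a type II cadherin, a calcium-dependent adhesion molecule, and Gpm6a a membrane glycoprotein of the proteolipid protein family known from neurite outgrowth. Apln encodes apelin, the peptide ligand of the receptor Aplnr. Mgat4c encodes a Golgi glycosyltransferase of the N-glycan branching family, Aifm3 a member of the apoptosis-inducing factor family of oxidoreductases, and Stk17b a serine/threonine kinase of the death-associated protein kinase family, also called Drak2.

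In GENCODE M21 on GRCm38 the genes lie on 6 chromosomes. Hapln1 (ENSMUSG00000021613) is at chr13:89539796-89611652 on the plus strand, Cdh19 (ENSMUSG00000047216) at chr1:110888326-110977584 on the minus strand, Gpm6a (ENSMUSG00000031517) at chr8:54954843-55060871 on the plus strand and Apln (ENSMUSG00000037010) at chrX:48025146-48034853 on the minus strand. Mgat4c (ENSMUSG00000019888) is at chr10:101681487-102391469 on the plus strand, Aifm3 (ENSMUSG00000022763) at chr16:17489611-17507485 on the plus strand and Stk17b (ENSMUSG00000026094) at chr1:53755506-53785224 on the minus strand. Cdh19, Gpm6a and Mgat4c overlap 2, 5 and 3 annotated genes on their own strand, and Hapln1 overlaps 1 on the other strand, which leaves the source of part of the reads uncertain. Apln, Aifm3 and Stk17b overlap none.

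RefSeq promoters on GRCm38.p6 (250 bases before to 50 after a gene's start, on the gene's strand) were matched for 6 of the genes. Cdh19 had no entry. Of 32851 promoters in the table, the AP-1 motif TGANTCA was in 7.81%, the STAT motif TTCNNNGAA in 8.3%, the hypoxia response core ACGTG in 19.6%, CCAAT in 37.4%, TATAAA in 13.6%, the cAMP response element TGACGTCA in 1.79% and the NFI palindrome in 0.0365%, searched on both strands. The promoters of Aifm3 and Gpm6a are shown as those of genes that were not below naive in every arm after ischemia, with those of the kinase Stk17b and the ligand Apln for contrast in letters. Capitals mark every match to these 7 motifs, 5′ to 3′.
Aifm3, chr16:17489427-17489726, plus strand: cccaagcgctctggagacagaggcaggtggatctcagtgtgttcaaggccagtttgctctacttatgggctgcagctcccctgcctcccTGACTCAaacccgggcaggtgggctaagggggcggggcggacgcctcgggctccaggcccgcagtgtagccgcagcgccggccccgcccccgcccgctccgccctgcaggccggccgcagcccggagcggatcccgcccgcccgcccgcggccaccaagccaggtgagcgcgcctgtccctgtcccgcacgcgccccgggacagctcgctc
Stk17b, chr1:53785166-53785465, minus strand: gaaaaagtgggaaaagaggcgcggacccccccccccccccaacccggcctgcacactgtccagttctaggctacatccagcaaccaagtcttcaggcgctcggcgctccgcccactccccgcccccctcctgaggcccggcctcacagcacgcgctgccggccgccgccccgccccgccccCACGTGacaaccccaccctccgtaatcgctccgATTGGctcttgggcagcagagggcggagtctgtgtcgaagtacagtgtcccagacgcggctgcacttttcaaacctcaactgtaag
Gpm6a, downstream of its 2 start sites, chr8:54954478-54954777, plus strand: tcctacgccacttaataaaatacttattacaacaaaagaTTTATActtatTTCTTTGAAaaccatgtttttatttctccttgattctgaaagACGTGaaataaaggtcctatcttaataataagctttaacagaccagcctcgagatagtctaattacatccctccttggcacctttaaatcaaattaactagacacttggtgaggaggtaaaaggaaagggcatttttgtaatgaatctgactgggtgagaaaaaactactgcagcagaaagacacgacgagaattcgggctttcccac
Apln, chrX:48034804-48035103, minus strand: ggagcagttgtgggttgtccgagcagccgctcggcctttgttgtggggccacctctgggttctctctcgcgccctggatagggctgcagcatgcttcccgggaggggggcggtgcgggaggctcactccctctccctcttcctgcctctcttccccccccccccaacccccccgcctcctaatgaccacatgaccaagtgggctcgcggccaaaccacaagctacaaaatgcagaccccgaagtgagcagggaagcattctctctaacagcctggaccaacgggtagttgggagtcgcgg
The Aifm3 promoter, with 74% G and C against a median of 52.7% over the table, held 1 AP-1 match. The Stk17b promoter held ACGTG on both strands in overlapping letters (the hexamer CACGTG) and 1 CCAAT on the other strand. The Gpm6a window held an inverted TATAAA 211 bases before the start, a STAT match at 200 bases and ACGTG at 158 bases before it. The windows of Apln and Hapln1, the upstream one of Gpm6a and the first of 4 of Mgat4c held none of the 7 motifs, which says only that these letters are not there. No motif was shared by all 6 genes; the search gives letters, not binding.

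Cells of the GLAST sorts held 3771 to 813054 counts, with arm medians from 98844 (KO 2 d striatum) to 404706 (TiCY 2 d striatum). Every naive striatal cell of both genotypes had reads of 6 or more of 10 astrocyte markers. In the striatum 2 d after ischemia, 87.7% of TiCY and 89.5% of KO cells did, and at 21 d 91.1%. In the vSVZ the share went from 88.3% of naive TiCY cells to 29% at 2 d and 81.3% at 21 d, and in the KO from 85.8% to 55.3%. Summed levels of 11 neuroblast markers in the vSVZ went from 711 to 4632 CPM (counts scaled to the library total) in TiCY mice and from 647 to 2777 CPM in the KO at 2 d, and most of the reactive astrocyte and immediate early genes counted were past 2-fold higher at 2 d in both regions and genotypes. The 8 microglia markers summed to between 1.95 and 40.2 CPM over the 10 sorts. Malat1, a nuclear noncoding RNA, took 0.83% to 1.13% of counts in the 4 naive sorts and 1.14% in the KO striatum at 2 d, but 0.0821% to 0.235% in the TiCY sorts and 0.139% in the KO vSVZ at 2 d, and 0.286% and 0.429% at 21 d. It had no count in the WT cells summed from pA to pE, and genes with no count in pA to pF held 3.16% to 6.53% of counts of the GLAST sorts. The part of these differences in the levels below was not tested. In counts summed over a whole sort, fewer cells of a type and less RNA per cell cannot be told apart. The KO vSVZ cells carry type labels in both arms. Of 134 naive cells 79 were vSVZ astrocytes and 8 neuroblasts, and of 228 cells at 2 d 36 and 76 were. Levels within labelled KO astrocytes are given below.

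At 2 d after ischemia all 7 genes were more than 2-fold lower in TiCY GLAST cells of both regions. A gene was counted as past the fold where log2 of the ratio of CPM, with 5 CPM added to each, was at -1 or lower; with 1 replicate an arm this is a size, not a test. Of the 14330 genes at 5 CPM or more in either striatal arm 17.7% were that much lower and 25.5% higher, and of 13925 in the vSVZ 16.4% and 19%; as the genes were chosen on these arms, their count of 7 is read against neither share. Their median log2 ratio was -2.57 in the striatum and -3.43 in the vSVZ, beside -1.31 and -2.32 over 18 astrocyte markers and 0.10 and 0.08 over all genes counted. In the KO vSVZ all 7 were past the fold (background 14.8% lower and 14.4% higher, median -2.70, astrocyte markers -1.37). In the KO striatum 3 of 7 were, Hapln1, Apln and Mgat4c (background 11.1% lower and 25.7% higher, median -0.76, astrocyte markers -0.17). The KO arms were among those on which the genes were chosen, so these counts are no repeat and are read against no share. The KO striatal cells at 2 d carry the title tags KO1 (61 cells) and KO2 (53 cells), whose meaning the labels do not give, and the sets differed. Hapln1 had 106 and 35.4 CPM in KO1 and KO2, Cdh19 66.9 and 143 CPM, Apln 29.4 and 71.4 CPM, and Aifm3 190 and 378 CPM. With KO1 alone Hapln1, Cdh19, Apln and Aifm3 were past the fold (log2 ratios -1.12, -1.06, -2.34 and -1.26), and with KO2 alone Hapln1, Apln and Mgat4c (-2.58, -1.19 and -1.22), while Cdh19 was at -0.02. Hapln1 and Apln were past the fold in both regions of both genotypes at 2 d, and with either set.

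**Figure D1:**
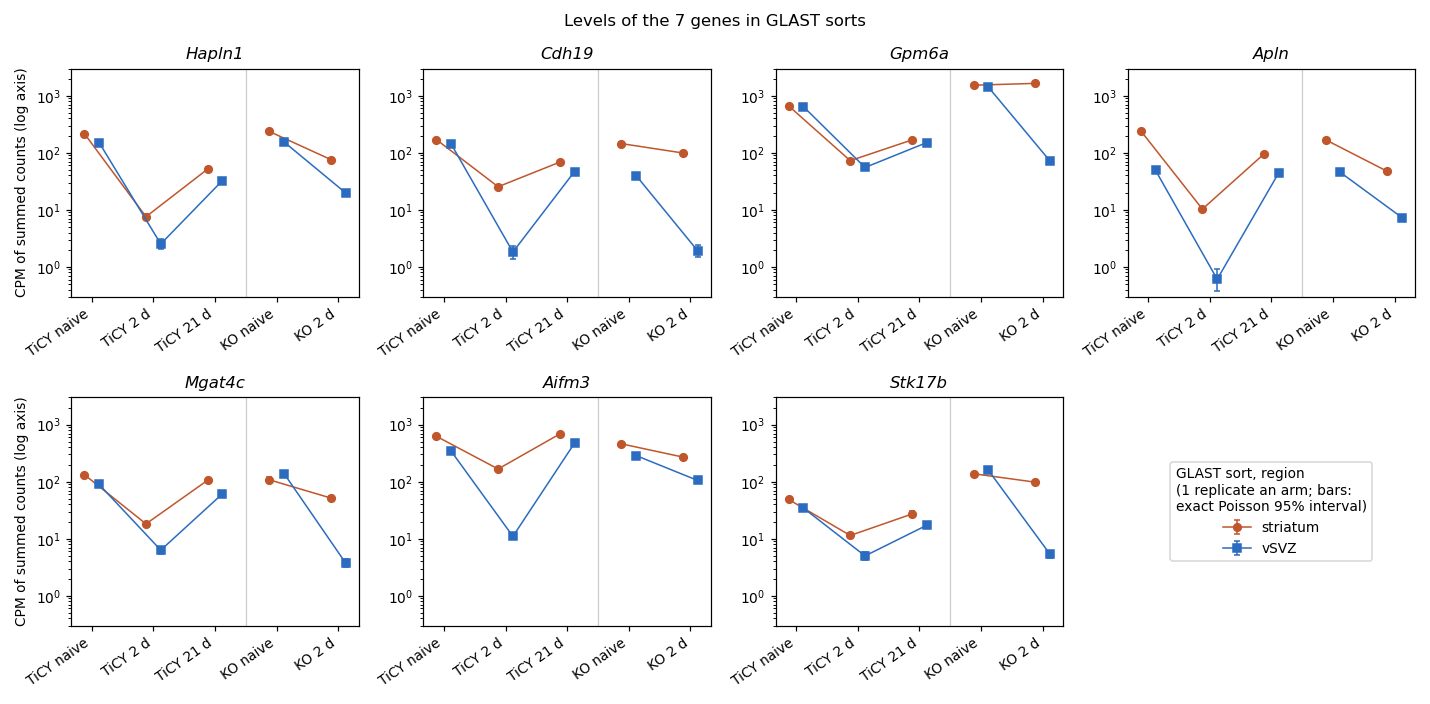
CPM of summed counts (log axis) of the 7 genes in GLAST sorts of the striatum (circles) and vSVZ (squares), by arm; bars are exact Poisson 95% intervals, and lines join arms of a genotype. Among the TiCY arms each gene is lowest at 2 d in both regions, and Gpm6a in the KO striatum is at 1532 CPM naive and 1649 CPM at 2 d.

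Of the matrix and adhesion genes, Hapln1 stood at 217 CPM in the naive TiCY striatum (exact Poisson 95% interval 209 to 224, counting error only), 7.57 CPM at 2 d (6.83 to 8.37) and 51.8 CPM at 21 d (47.9 to 55.8). In the TiCY vSVZ it stood at 151, 2.52 and 32.6 CPM. The 2 d level was 28.6-fold below naive in the striatum and 60.1-fold in the vSVZ, and at 21 d it was still 4.18-fold and 4.63-fold below. In the KO it went from 237 to 76 CPM in the striatum and from 155 to 19.8 CPM in the vSVZ, so that at 2 d both KO sorts lay above both TiCY sorts. These are levels of different replicates, and the difference between genotypes was not tested. Cells were thinned to 50000 reads, and shallower ones were left out: 25 of 131 naive TiCY striatal cells, none of 122 at 2 d and 3 of 79 at 21 d. Of the thinned cells 88.7% of the naive had a Hapln1 read, against 14.8% at 2 d and 42.1% at 21 d (unthinned 88.5%, 22.1% and 54.4%).

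Cdh19 stood at 170 CPM in the naive TiCY striatum, 25.4 CPM at 2 d and 68.6 CPM at 21 d, and in the vSVZ at 141, 1.82 and 47 CPM. The vSVZ level at 2 d was thus 77.1-fold below naive, from 63 reads in 176 cells, while the striatal level was 6.69-fold below. In the KO vSVZ it went from 39.8 to 1.9 CPM, and in the KO striatum from 145 to 99.2 CPM, a log2 ratio of -0.52. The vSVZ sorts of both genotypes at 2 d were the lowest of the 10.

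Gpm6a stood at 665 CPM in the naive TiCY striatum, 72.8 CPM at 2 d and 168 CPM at 21 d, and in the vSVZ at 645, 55.3 and 151 CPM. In the KO vSVZ it went from 1424 to 72 CPM, a log2 ratio of -4.21. In the KO striatum it went from 1532 to 1649 CPM, a log2 ratio of 0.11 that was -0.04 with TMM and -0.07 with DESeq2 scaling, so it was about level. The 2 KO regions were thus near each other when naive and apart at 2 d. Malat1 differed between the same KO sorts at 2 d, 1.14% of counts in the striatum and 0.139% in the vSVZ, and its part was not tested. The KO1 and KO2 cells held 1534 and 1804 CPM of Gpm6a.

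Apln, the ligand, stood at 243 CPM in the naive TiCY striatum (235 to 251), 10.3 CPM at 2 d (9.39 to 11.2) and 95.6 CPM at 21 d (90.4 to 101). In the vSVZ it stood at 49.1, 0.607 and 44.8 CPM. With 34 further labelled striatal cells at 2 d from a second deposited table, on a scale of 300 genes, the Apln log2 ratio in the striatum was -2.64 in place of -3.55. The vSVZ value at 2 d rests on 21 reads, of which 57.1% came from 1 cell. At 21 d Apln was back near its naive level in the vSVZ (log2 ratio -0.12) and 2.54-fold below it in the striatum. In the KO it went from 169 to 47.3 CPM in the striatum and from 45.2 to 7.29 CPM in the vSVZ. The naive striatal sorts of both genotypes lay above the naive vSVZ sorts. Its receptor Aplnr had no count in any of the 10 GLAST sorts.

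Of the intracellular enzymes, Mgat4c stood at 133, 18.2 and 106 CPM in the TiCY striatum (naive, 2 d and 21 d) and at 89.4, 6.31 and 61.3 CPM in the vSVZ. In the KO it went from 139 to 3.74 CPM in the vSVZ and from 108 to 51.7 CPM in the striatum. A read was seen in 48.1% of naive TiCY striatal cells and 50.8% at 2 d, or 43.4% and 26.2% after thinning. A single cell held 35.6% of the reads of the naive KO striatum, and without the top cell of each arm the log2 ratio there was -0.68 and no longer past the fold.

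Aifm3 stood at 624, 167 and 686 CPM in the TiCY striatum and at 341, 11 and 475 CPM in the vSVZ. At 21 d it was above its naive level in the vSVZ (log2 ratio 0.47) and close to it in the striatum (0.14, or -0.18 with the second table's cells), while Hapln1, Gpm6a and Cdh19 were past the fold below it in both. In the KO it went from 287 to 105 CPM in the vSVZ and from 461 to 270 CPM in the striatum. Of the 381 Aifm3 reads in the TiCY vSVZ at 2 d, 57.7% came from 1 cell, and 7.95% of cells had a read, against 79.3% when naive.

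Stk17b stood at 48.8, 11.4 and 27.1 CPM in the TiCY striatum and at 34.5, 5 and 17.2 CPM in the vSVZ. The naive KO sorts held more, 138 CPM in the striatum and 159 CPM in the vSVZ, and at 2 d they held 98.2 and 5.36 CPM. The KO vSVZ thus had a log2 ratio of -3.99 and the KO striatum -0.47. The naive levels of the 2 genotypes come from 1 replicate each and were not tested.

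**Figure D2:**
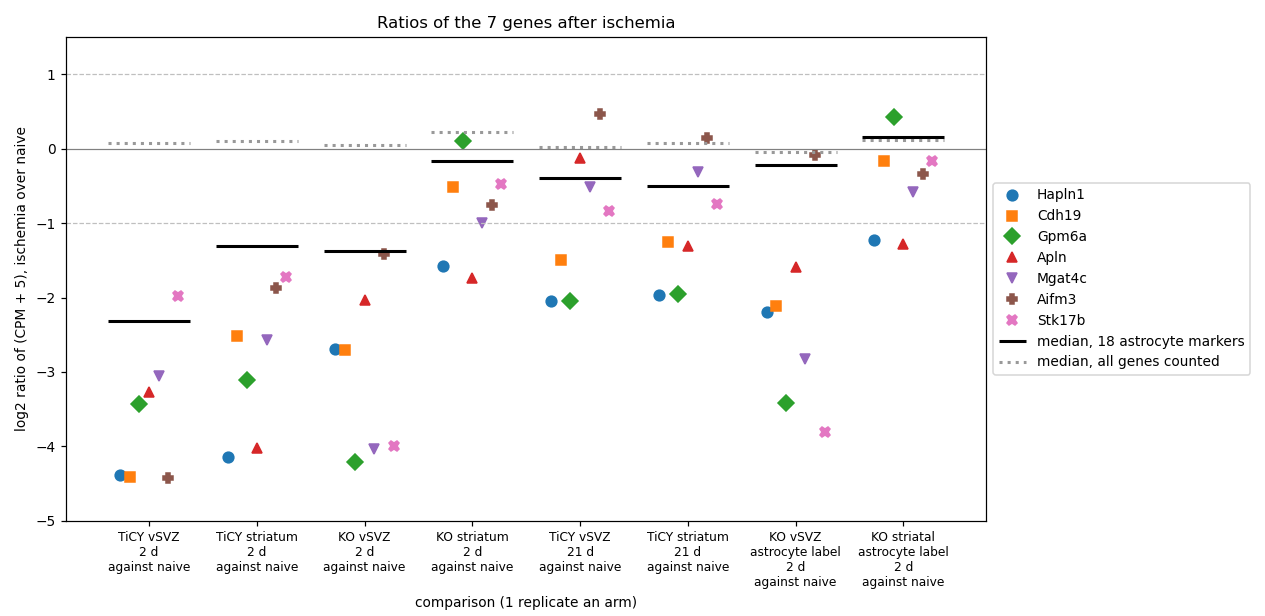
Log2 ratio of (CPM + 5), ischemia over naive, for each gene in 8 comparisons; black bars are the median of 18 astrocyte markers, dotted bars the median of all genes counted, and dashed lines the 2-fold bounds. All 7 genes lie below -1 at 2 d in both TiCY regions and the KO vSVZ, Gpm6a in the KO striatum lies near 0 (0.11, and -0.04 with TMM scaling), and Aifm3 at 21 d lies at 0.47 and 0.14.

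At 21 d 4 of 7 genes were past the fold below naive in the TiCY striatum (background 9.16% lower, 12.1% higher) and 3 of 7 in the vSVZ (background 8.16% lower, 8.55% higher). The genes were chosen on these arms too, so neither count is read against its share. Hapln1, Cdh19 and Gpm6a were past it in both regions, with log2 ratios from -2.05 to -1.25, and Apln in the striatum. The enzymes Mgat4c, Aifm3 and Stk17b were past it in neither region, between -0.83 and 0.47. The 21 d cells are another replicate (pH) than the 2 d cells (pI) and share the naive sorts with them, so a course within mice was not measured.

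The ratios were also taken within cells that had reads of 6 or more of the 10 astrocyte markers. This selection does not hold the make-up of a sort fixed. In the KO vSVZ 115 naive cells and 126 cells at 2 d passed it, while 79 and 36 cells carried the label vSVZ astrocyte. The part of make-up in the selected cells was not tested. In the TiCY vSVZ the 51 such cells at 2 d against 166 naive gave log2 ratios of -4.24 for Hapln1, -4.00 for Cdh19, -3.40 for Gpm6a, -3.17 for Apln, -2.95 for Mgat4c, -3.47 for Aifm3 and -1.29 for Stk17b, all 7 past the fold (background 16.1% lower). In the TiCY striatum they ran from -4.06 for Apln to -1.69 for Aifm3, again 7 of 7 (background 18.2% lower). The genes were chosen on these arms, and nothing is read from either count. In the KO vSVZ 6 of 7 were past the fold, with Aifm3 at -0.80 (background 14.8% lower). In the KO striatum 2 of 7 were, Hapln1 at -1.48 and Apln at -1.59, with Mgat4c at -0.90 and Gpm6a at 0.22 (background 11.4% lower). The KO arms were among those of the choice too, and nothing is read from these counts either.

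The authors' cell type labels allow the same comparison for KO astrocytes, the only ones with the same type label before and after ischemia. Their genotype label differs, IFN(A/G)R KO when naive and TiCY-IFN(A/G)R KO at 2 d. In every KO comparison ischemia and any difference in TiCY background thus cannot be told apart. These cells are part of the KO sorts on which the genes were chosen, so counts of the genes are read against neither background nor markers. In 36 labelled vSVZ astrocytes at 2 d against 79 naive, 6 of 7 genes were past the fold (background 20.3% lower, 17.6% higher). Of 18 astrocyte markers 2 were, and their median log2 ratio was -0.22. Gpm6a went from 2002 to 182 CPM and Stk17b from 196 to 9.32 CPM, the latter a log2 ratio of -3.81. Aifm3 was level, at 359 and 339 CPM. In 82 labelled striatal astrocytes against 35 naive, Hapln1 (237 to 98 CPM) and Apln (169 to 66.8 CPM) were past the fold, 2 of 7 (background 13.1% lower, 20.9% higher), and Gpm6a went from 1532 to 2069 CPM. Malat1 took 0.29% of counts in the labelled vSVZ astrocytes at 2 d against 0.851% when naive, and 1.4% in the striatal ones against 0.982%. In the 27 KO cells labelled neurogenic striatal astrocytes at 2 d, Apln had 1 read, Cdh19 3 reads and Gpm6a 648 CPM. The labels may rest on these transcriptomes.

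Per cell, the number of the 7 genes with a read after thinning (29 of 35 naive and 90 of 114 2 d cells kept in the KO striatum; 177, 152 and 150 TiCY and 115 and 177 KO cells in the vSVZ) had a median of 5 in the naive TiCY striatum, 2 at 2 d and 4 at 21 d. In the vSVZ the medians were 4, 1 and 3. In the KO they were 4 and 4 in the striatum and 3 and 1 in the vSVZ. Cells with 5 or more of the genes made up 81.1% of the naive TiCY striatum, 2.46% at 2 d and 44.7% at 21 d. In the KO striatum the shares were 48.3% and 43.3%. In the vSVZ they were 35.6%, 1.32% and 16% in TiCY mice, and 19.1% and 3.39% in the KO. The genes were chosen on these arms, so the shares are a description.

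Naive levels varied between astrocyte sums, which differ in replicate, region and genotype, and the parts of these were not separated. Over 7 naive astrocyte sums (vSVZ of pM and pJ, striatum of pE, pJ, pL and pM, cortex of pL), Hapln1 ranged from 119 to 256 CPM with a median of 217. Cdh19 ranged from 52.3 to 216 CPM (median 145), Apln from 64.9 to 243 CPM (median 109) and Stk17b from 44.2 to 196 CPM (median 102). Within pM, Apln had 243 CPM in the striatum and 75.1 CPM in the vSVZ, and within pJ 169 and 64.9 CPM. Hapln1 differed less between these regions, with 217 and 242 CPM in pM and 237 and 256 CPM in pJ. Gpm6a ranged from 665 to 2848 CPM (median 2002), with both pM sums, 665 CPM in the striatum and 887 CPM in the vSVZ, the lowest. The base of the TiCY striatal comparisons is 665 CPM, and that of the vSVZ comparisons is the whole pM sort, at 645 CPM. Aifm3 ranged from 169 CPM in pE to 624 CPM in pM (median 413), and Mgat4c 10.5-fold, from 19.1 CPM in pE to 201 CPM in the pL striatum. The levels of Aifm3 and Mgat4c in the TiCY striatum at 2 d, 167 and 18.2 CPM, were level within counting error with these pE sums of naive WT mice (intervals 161 to 177 and 16.5 to 22 CPM). The pE sum holds 12 cells and no count of Malat1, Neat1 or Meg3, unlike the TiCY sorts. Whether its counts are on the same footing as theirs was not tested.

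The other labelled types of naive mice show where else the genes are read. In quiescent NSCs labelled qNSC1, of 5 WT replicates, Hapln1 had 175 ± 135 CPM, Cdh19 69 ± 39, Gpm6a 1880 ± 1390, Apln 74.3 ± 27.5, Mgat4c 21.1 ± 17.3, Aifm3 335 ± 223 and Stk17b 54.8 ± 20.1 CPM (mean ± SD, n = 5). The spread was wide: Gpm6a ran from 161 CPM in pD to 3286 CPM in pE, 20.4-fold, and Hapln1 from 14.6 CPM in pD to 341 CPM in pB. Along the lineage, in qNSC2 cells of 4 WT replicates Hapln1 had 28.1 ± 29 CPM and Apln 9.14 ± 8.65 CPM, and Gpm6a 1308 ± 891 CPM (mean ± SD, n = 4). In activated NSCs and transit-amplifying progenitors (TAP) of 3 WT replicates Hapln1, Cdh19 and Apln were all under 1 CPM, whereas Gpm6a had 64.5 ± 46.9 and 51.8 ± 30.1 CPM (mean ± SD, n = 3). In TAP no read of Hapln1 or Apln was seen in any of the 3. The naive TiCY and KO mice, 1 replicate each, had more Hapln1, 30.4 and 23.8 CPM in activated NSCs and 23.2 and 18.2 CPM in TAP. Apln had 9.24 CPM in TiCY activated NSCs and 7.79 CPM in KO TAP, Cdh19 had 8.69 CPM in TiCY activated NSCs, and the remaining sums of these 2 genes in those types were at 0. Neuroblasts of 4 WT replicates had Gpm6a at 246 ± 213 CPM (mean ± SD, n = 4) and had under 1 CPM of Hapln1, Cdh19, Apln and Stk17b. In 8 naive KO neuroblasts Mgat4c had 431 CPM, but 99.7% of its 670 reads came from 1 cell and 2 cells had a read, so no comparison with WT neuroblasts (1.36 ± 0.98 CPM, mean ± SD, n = 4) is made.

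**Figure D3:**
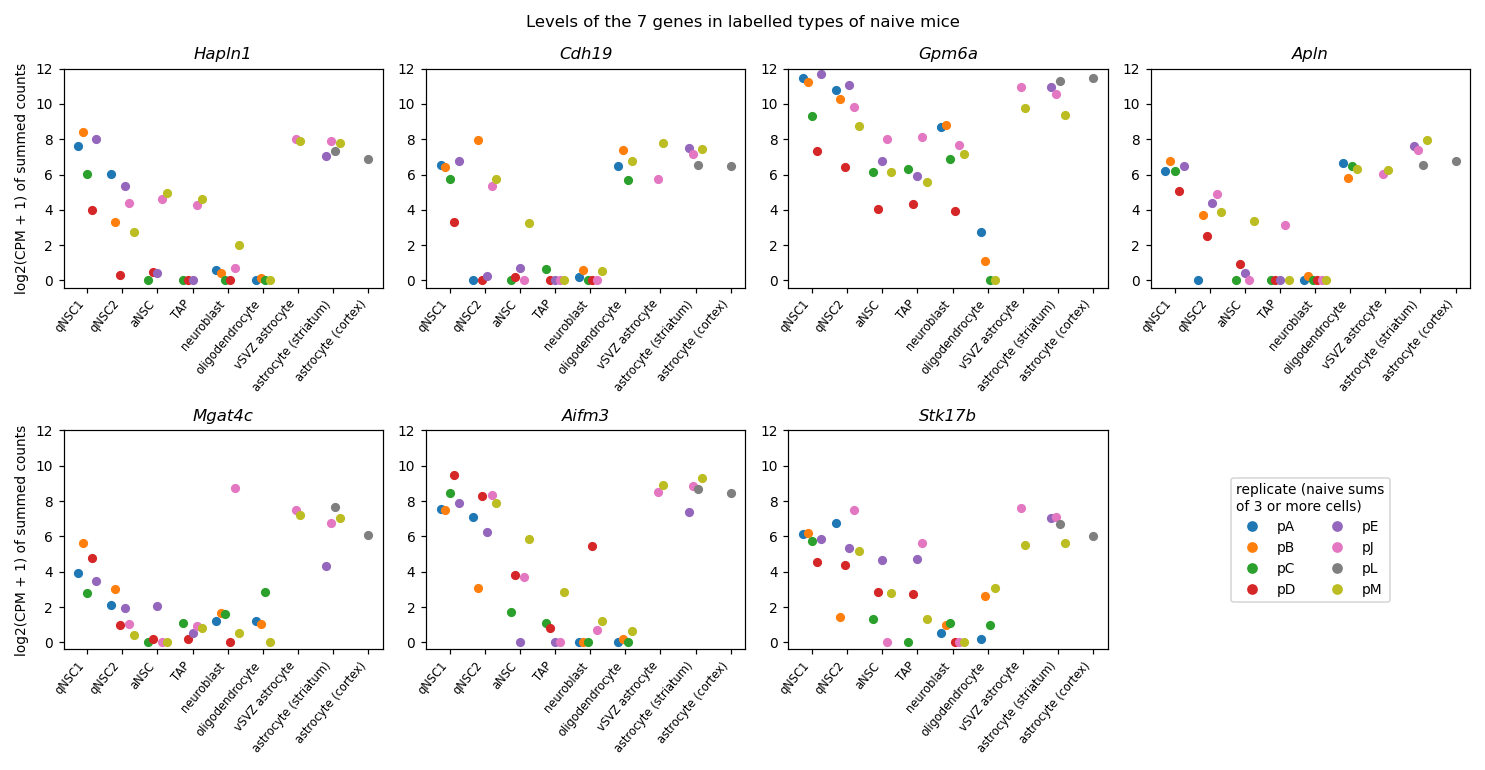
Log2(CPM + 1) of summed counts in labelled types of naive mice, 1 point a replicate, coloured by letter. Hapln1 is highest in astrocyte and most qNSC1 sums (14.6 CPM in pD), Aifm3 is read in qNSC2 as well (316 CPM in pD), Cdh19 and Apln are also read in oligodendrocytes (means 100 and 80.7 CPM in WT), and Gpm6a is read in every stage from qNSC1 to neuroblast.

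The surface sorts of naive WT vSVZ allowed a test, since they have 3 replicates (pA, pB and pC). They hold none of the cells on which the genes were chosen, but this does not make the test independent of the choice. At the earlier day after ischemia, the vSVZ GLAST sorts of both genotypes had higher summed neuroblast markers than when naive. Choosing genes that were lower in those sorts thus favours genes that are low in neuroblasts. The ASTRO, NB and OLIGO sorts were each set against the NSC sort in 1 edgeR quasi-likelihood fit of 12 sums and 14348 genes, with Benjamini-Hochberg adjustment. The p-values measure spread between letters and leave out the pairing of sorts by letter. By the cell labels the ASTRO sort held no astrocyte: of its 48 cells 14 were qNSC1, 5 qNSC2, 11 activated NSCs, 8 TAP and 10 neuroblasts, and in pC 4 of 23 were qNSC1. The NSC sort held 27 qNSC1 among 41 cells and 8 oligodendrocytes, 7 of them among the 15 cells of pB. The NB sort held 62 neuroblasts and 5 TAP, and all 50 cells of the OLIGO sort were oligodendrocytes. The test thus compares sorts, and the part of their make-up was not tested. None of the 7 genes passed between ASTRO and NSC sorts (0 at an unadjusted p under 0.05, and 0 by DESeq2; 0.0906% of all genes passed, every one higher). Hapln1 had 134.2, 112 and 14.35 CPM in the ASTRO sort and 134, 139.7 and 43.02 CPM in the NSC sort (TMM-scaled CPM, pA, pB and pC), and the groups overlapped. Apln and Aifm3 were lower in the ASTRO sort in 3 of 3 replicates, with log2 differences of -1.05 ± 0.70 and -1.27 ± 0.67 (SE; edgeR adjusted p = 0.823 and 0.706), so a difference of this size was not detectable here.

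In the NB sort 5 of 7 genes were lower than in the NSC sort (11.8% of all genes passed, 8.16% lower and 3.62% higher). As the choice of the genes favours those low in neuroblasts, this count is not read against the share. Hapln1 had 0.514, 0.405 and 0 CPM in the NB sort (log2 difference -8.17 ± 1.17 SE, edgeR adjusted p = 0.00104, lower in 3 of 3 replicates). Cdh19 (edgeR adjusted p = 9.4e-04), Apln (2.5e-04) and Stk17b (0.0192) were also lower in 3 of 3. Aifm3 had no count in any of the 3 NB sums, and at a floor of 3 counts over the group its NB level was at least 1518-fold lower (edgeR adjusted p = 2.1e-04). Gpm6a, with 376.1, 356.1 and 105.9 CPM in the NB sort and 2641, 998.6 and 495.4 CPM in the NSC sort, did not pass (adjusted p = 0.236) but passed with the letter as a replicate block (edgeR adjusted p = 0.0390). Mgat4c did not pass either (edgeR adjusted p = 0.0940). Without pB Hapln1 no longer passed (edgeR adjusted p = 0.0589), and Stk17b did not pass without pA, pB or pC (0.154, 0.0677 and 0.0643), so 3 or 4 of the 7 passed in those fits.

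In the OLIGO sort 3 of 7 genes were lower than in the NSC sort (6.1% of all genes passed, 5.86% lower and 0.237% higher). Hapln1 had 0, 0.167 and 0 CPM (edgeR adjusted p = 7.0e-04), Aifm3 0, 0.167 and 0 CPM (edgeR adjusted p = 2.6e-04) and Gpm6a 7.83, 0.889 and 0 CPM (edgeR adjusted p = 0.00415; 0.0882 without pB). Cdh19 and Apln did not pass, against an NSC sort whose pB sum, with 7 oligodendrocytes, was its highest for both (127.3 and 101.2 CPM). Cdh19 had 120.1, 188 and 57.42 CPM (mean 122 ± 65.3 SD against 73.8 ± 46.8, edgeR adjusted p = 0.720), and Apln 123.4, 46.25 and 103 CPM (mean 90.9 ± 40 SD against 70.3 ± 27, edgeR adjusted p = 0.857). The log2 differences were 0.72 ± 0.81 and 0.37 ± 0.69 (SE). Thus 2 of the genes that were low after ischemia are read in oligodendrocytes of naive mice as well as in astrocytes. The 10 oligodendrocyte markers summed to between 50.4 and 169 CPM in the GLAST sorts.

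**Figure D4:**
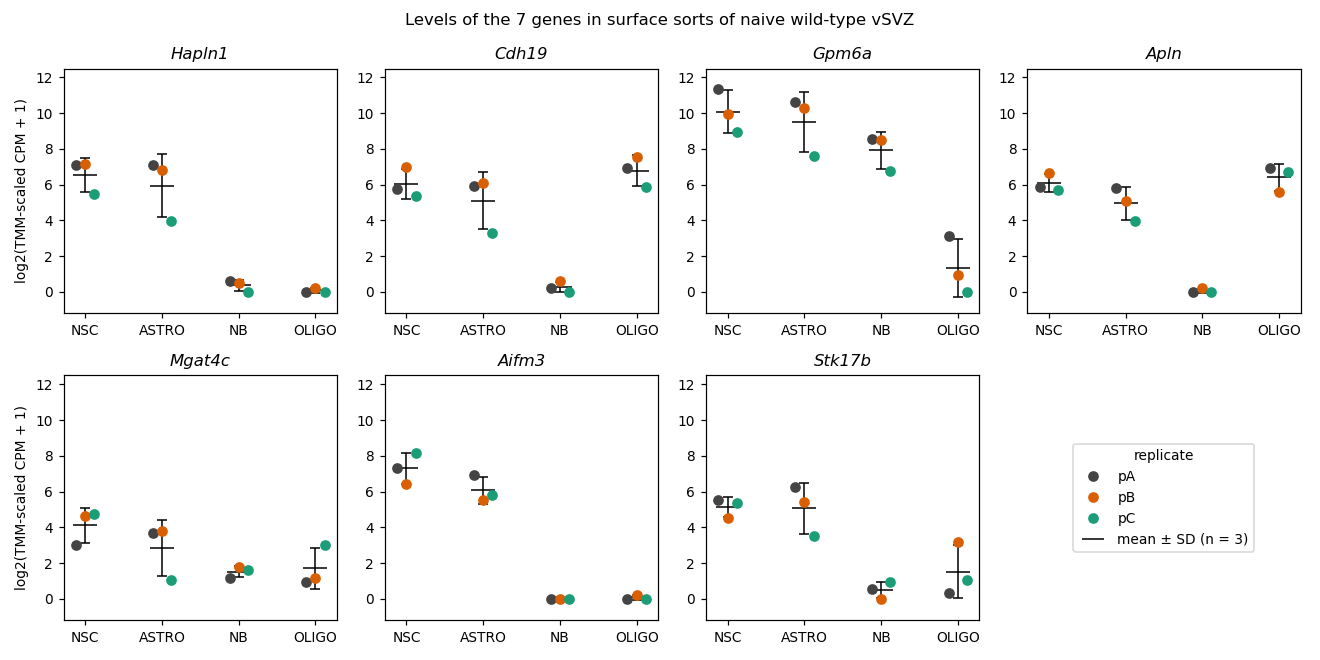
Log2(TMM-scaled CPM + 1) in the NSC, ASTRO, NB and OLIGO sorts of naive WT vSVZ, 1 point a replicate, with mean and SD (n = 3). Hapln1 and Aifm3 are near 0 in NB and OLIGO sorts, Cdh19 and Apln are near 0 in the NB sort only, and all 7 overlap between NSC and ASTRO sorts.

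Genes of the same families lay on both sides of naive. Of 13 other hyaluronan matrix genes counted in the TiCY vSVZ at 2 d, 5 were past the fold below naive and 5 above, and of 15 in the striatum 3 were below and 6 above. Cd44, the main hyaluronan receptor, went from 4.41 to 171 CPM in the TiCY striatum and from 0.457 to 155 CPM in the KO striatum, and Tnc, which encodes the matrix glycoprotein tenascin C, from 7.33 to 101 CPM and from 4.57 to 39.8 CPM. Tnfaip6, which encodes a hyaluronan-binding protein of inflammation, went from 12.4 to 34.4 CPM and from 5.02 to 24.7 CPM. In the vSVZ Tnfaip6 was lower at 2 d, 18.4 to 3.01 CPM in TiCY and 26.2 to 8.7 CPM in the KO, and Tnc went from 13.4 to 9.75 CPM and from 35.1 to 42.1 CPM. Of 15 other cadherins and catenins in the TiCY striatum 6 were below and 6 above. Ctnnd2, the neural delta-catenin, went from 1625 to 451 CPM in TiCY and from 1783 to 835 CPM in the KO striatum, and Ctnna2, an alpha-catenin, from 311 to 106 CPM and from 375 to 160 CPM. Ctnnb1, which encodes beta-catenin, went from 19 to 43.5 CPM and from 67.3 to 469 CPM.

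Of 2 other proteolipid protein genes 1 was past the fold below naive in the TiCY striatum. Neither of the other AIF genes, Aifm1 and Aifm2, was past the fold in any of the 6 sort comparisons. In the N-glycan branching family Mgat5 went from 394 to 180 CPM in the TiCY striatum and from 516 to 225 CPM in the KO striatum. Mgat3 went from 14 to 48.6 CPM and from 8.9 to 35.2 CPM there. In the vSVZ Mgat3 went from 16 to 23.5 CPM in TiCY and from 29.4 to 16.8 CPM in the KO. Of 2 other death-associated protein kinases counted in the TiCY striatum 1 was past the fold, above naive. Of 8 HIF target genes counted there, 3 were below and 1 above, and in the KO striatum 1 was below and 2 above. Bnip3, a mitophagy receptor of that list, went from 19.1 to 5.69 CPM in the TiCY striatum and from 42 to 13.9 CPM in the KO striatum. In the vSVZ Bnip3 stood at 17 CPM naive and 17.9 CPM at 2 d in TiCY, and at 22 and 17.7 CPM in the KO.

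Over 22 sums of 10 or more cells in pH, pI, pJ, pL and pM, the patterns of the 7 genes were compared with those of 13985 genes by Pearson's r of log2(CPM + 5). The sums share letters, so r is a description. They include the arms on which the 7 genes were chosen for being lower after ischemia. That choice favours high r among the members, and nothing is read from its size. Among the members the closest pair was Cdh19 and Apln (r = 0.934), each the most like gene of the other, and the least alike were Gpm6a and Apln (r = 0.54). Gpm6a was most like Xpr1 (r = 0.928) and Fmn2 (r = 0.920), Aifm3 most like Phkg1 (r = 0.979) and Vcam1 (r = 0.975), and Cdh19 and Apln next most like Gphn (r = 0.917) and Agmo (r = 0.929). Mgat4c was most like AC121552.1 (r = 0.968) and Celrr (r = 0.964), Hapln1 like AC121552.1 (r = 0.910) and Gm29514 (r = 0.887), and Stk17b like Fam228a (r = 0.933) and Gm35188 (r = 0.930).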

How the data were processed

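RNA of single cells was read by Smart-seq3. The submitters' processing notes name STAR, featureCounts and GRCm38 (mm10); the sources used here give no versions, annotation or cell filter. The authors deposited unnormalised counts, cell by gene. The main count matrix holds 2584 cells, of which 1981 carry a label and were used; 603 without a label were not. A second table holds 101 further labelled cells (76 in GLAST sorts), used only as an alternative; over 513 shared cells and 300 genes 0 values differed. No 2 cells had identical counts, and no doublet caller was run.

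Each sort or type was summed within a replicate and scaled to CPM; sums of under 3 cells were left out. Intervals are exact Poisson, at 95%. Arms of 1 replicate were compared by log2 of the ratio of CPM + 5, among genes at 5 CPM or more in either arm. Sorts were tested with edgeR 4.0.16 (TMM, filterByExpr, quasi-likelihood F test, 8 residual degrees of freedom) in R 4.3.3, checked on simulated counts. Deviations of same-letter sums from their sort means correlated at 0.148 to 0.406, every pair above 0.1, so letters pair the samples. Symbols come from GENCODE M21 (35455 of 35606 identifiers). The 7 genes and the marker and family lists were chosen with earlier results of these data known. Named family genes are those past the fold in the same direction in both striatal comparisons at 2 d, at most 3 a list with the highest CPM; genes alike are the 2 with the highest r among genes at 20 CPM or more in a sum. Alternatives were other scalings, priors, filters and tools, thinned or selected cells, left-out replicates and the letter as a block.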

Additional observations from a re-analysis of the deposited data

Results flagged for a closer look

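Gpm6a was far lower at 2 d in the TiCY striatum (log2 ratio -3.11) and the KO vSVZ (-4.21) and about level in the KO striatum (0.11). The sign of the last value depends on the scaling, since it was -0.04 with TMM and -0.07 with DESeq2 size factors. With 1 replicate an arm this difference was not tested.

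Of 21 groups of replicates checked for a value far from the others, of which chance flags about 1 in 20, 3 were flagged. Aifm3 had 43.3 CPM in WT neuroblasts of pD (7 cells) and none in the other 3 replicates. Apln had 0.173 CPM in WT neuroblasts of pB and none in the others, which is a few reads. Cdh19 had 247 CPM in WT qNSC2 of pB, a sum of 3 cells.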

How the results depend on the processing

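Of 448 ratios of single genes under other scalings, priors, cell weights, thinning, marker-selected cells, title tags or the second table, 438 stayed on the same side of the 2-fold threshold and 10 crossed it; no ratio past the threshold changed sign. With 1 CPM added in place of 5, low vSVZ levels gave larger ratios: -4.96 for Apln, -5.65 for Cdh19 and -5.44 for Hapln1 in TiCY mice at 2 d. With cells weighted alike, Stk17b in labelled KO vSVZ astrocytes was at -2.61 in place of -3.81, and Apln at -0.90 in place of -1.59. With the second table's cells 5 genes in place of 4 were past the fold in the TiCY striatum at 21 d. Leaving out pA, pB or pC in turn, 3 to 4 of the 7 genes were lower in the NB sort in place of 5. With the letter as a replicate block 6 of the 7 were lower in the NB sort, 3 in the OLIGO sort and 0 differed in the ASTRO sort; the block changed no other call than that of Gpm6a. The ratio of Mgat4c in the KO striatum lies at the 2-fold threshold, and in KO1 cells alone it was -0.86. TMM and DESeq2 scaling shifted ratios by at most -0.14 and -0.18, in the KO striatum. The 300-gene scale was added after seeing the data. With 1 replicate an arm, the spread between mice is unknown for every ischemia ratio.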
